A study of Mus musculus with 18 samples.

Results

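The growth hormone and insulin-like growth factor (IGF) axis was examined in mouse liver through 10 genes, chosen by symbol from the 55291 genes of the liver count table: Ghr, Stat5b, Socs2, Cish, Igf1, Igfals, Igfbp1, Igfbp2, Igfbp4 and Egfr. The study concerns Otub2, a deubiquitinating enzyme of the OTU family, and its part in the pancreatic beta cell, with the liver sequenced as another tissue of the same knock-out. The comparison was of 5 livers of genotype OTUB2 +/- (HET) with 2 livers of genotype OTUB2 +/+ (WT). The labels give no strain, sex, age or deleted region, and do not say which cells carry the deletion or whether each sample is a separate animal, so p-values measure the spread between these samples, which may be technical. Libraries came from MARS-seq adapted to bulk RNA, in which only the 3′ end of a transcript is sequenced. Long and short transcripts are therefore counted alike in principle, and isoforms are not seen. Levels of different genes are compared here as CPM. The annotation, the use of molecular barcodes and the correction made to the counts, which could affect genes unequally, are not given in the sources used here.

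Growth hormone from the pituitary binds its receptor on hepatocytes, and the receptor-bound kinase JAK2 phosphorylates STAT5B, which enters the nucleus and switches on Igf1, Igfals and the feedback inhibitors Socs2 and Cish. The liver secretes most of the IGF1 found in blood, where IGF1 travels bound to IGF-binding proteins and, in the larger complex, to the acid-labile subunit encoded by Igfals. In rodents the rhythm of growth hormone secretion differs between the sexes, and many liver genes expressed in a sex-biased way follow it through STAT5B.

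Total counts ran from 155201 (WT 1) to 1686234 (HET 5), a 10.9-fold range, so that 1 count equalled 6.44 CPM (counts scaled so that each library sums to 1000000) in WT 1 and 0.593 CPM in HET 5. Otub2 had 1 count in WT 1, 0 in WT 2, 1, 0, 1, 1 and 2 in HET 1 to HET 5. A count of 0 allows up to 8.76 CPM in WT 2 and 4.16 CPM in HET 2 (3 counts, counting error only), so Otub2 was too scarce in liver to check the genotype labels, and the position of the deletion relative to the 3′ end is not given in the sources used here. All 6 hepatocyte markers were counted, and Alb, the serum albumin gene, had 11112 to 33895 CPM. Markers of bile duct cells summed to 114 CPM in HET 5 and 6.44 to 31.9 CPM in the other livers. Of the 5 sex chromosome genes, Xist had 0 counts in all 7 livers, which allows up to 19.3 CPM in WT 1 and 1.78 CPM in HET 5. Each of the 7 livers had at least 1 count of the 4 Y-linked genes, but the 5 genes together had only 6.52 to 18.6 CPM.

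None of the 10 genes passed the test between the genotypes. With edgeR's quasi-likelihood test and Benjamini-Hochberg adjustment over the 4803 genes that passed the expression filter, 0 genes had an adjusted p under 0.05 (0.0%), while 497 (10.3%) had an unadjusted p under 0.05. DESeq2 called 16 genes, with 0 of the 10 among them. Of the 10, 9 passed the filter and Igfbp4 did not. Log2 fold changes (HET minus WT) of the 9 ran from −0.20 (Socs2) to 1.14 (Egfr). Their median was 0.41, against 0.03 over all genes tested, and 8 of 9 lay above 0, as did 52.1% of all genes tested. The 10 genes were chosen with earlier results of these data known, and all were read in the same 7 livers. Among the 8, Igfbp1 (0.01) and Stat5b (0.03) lay no higher than the median of all genes tested. Under total-count scaling they were −0.070 and −0.079. Cish and Egfr had an unadjusted p under 0.05 with a higher HET value (2 of 9, against 5.39% of all genes tested), and 0 of 9 with a lower one (against 4.96%). In bulk tissue, fewer cells of a type and less RNA per cell cannot be told apart.

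**Figure D1:**
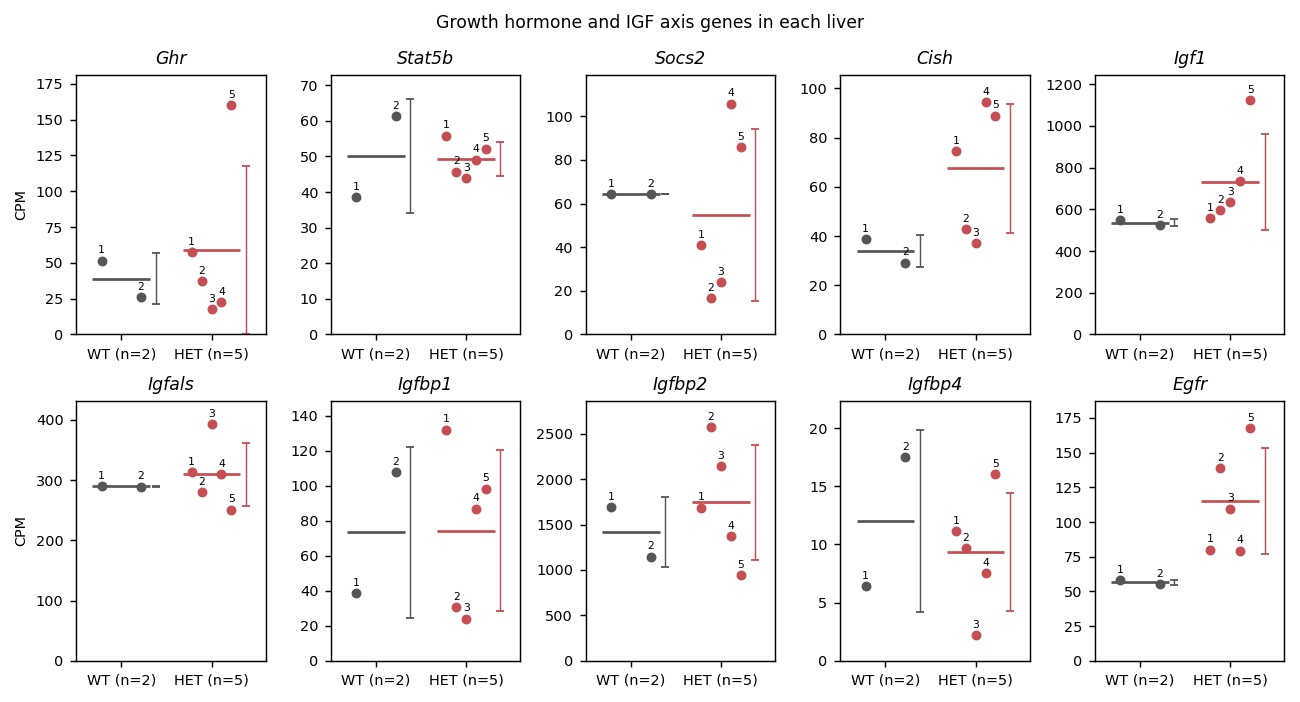
Each panel shows 1 gene, with the level in CPM on the vertical axis and the livers by genotype on the horizontal axis. Points are livers with their replicate number, horizontal lines are means and bars beside them are SD (WT n = 2, HET n = 5). In the panels of Igf1 and Egfr all 5 HET livers lie above both WT livers, and HET 5 stands apart in the panel of Ghr.

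**Figure D2:**
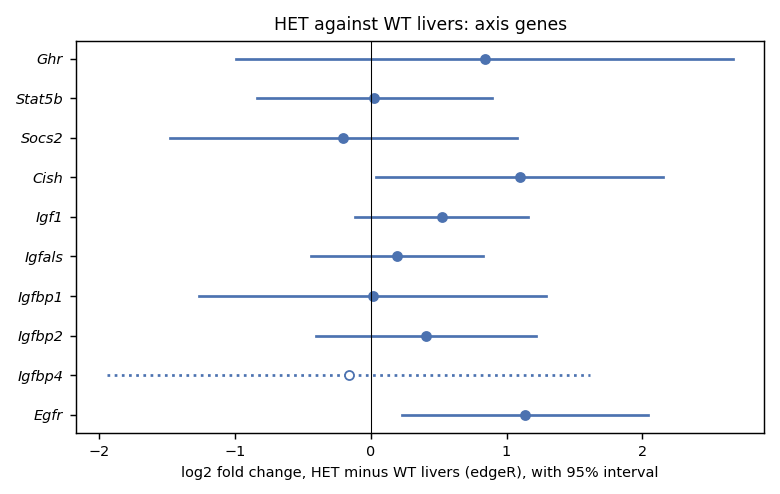
Points are log2 fold changes of HET against WT livers from edgeR and lines their 95% intervals, with 0 marked by the vertical line. Igfbp4 (open point, dotted line) comes from the fit without an expression filter. The intervals of Cish and Egfr lie above 0 before adjustment over the 4803 genes, and those of the other 8 genes include 0.

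Levels spanned a wide range within the axis. Averaged over the 7 livers, Igfbp2 was the most abundant at 1650 ± 565 CPM (SD, n = 7), followed by Igf1 at 675 ± 210 and Igfals at 304 ± 44.2. Igfbp2 exceeded Igf1 in 6 of 7 livers, Igf1 exceeded Igfals in 7 of 7, and Igfals exceeded Egfr in 7 of 7. Egfr (98.4 ± 42.3), Igfbp1 (74.1 ± 42.7), Cish (58.0 ± 27.1), Socs2 (57.4 ± 32.4), Ghr (53.3 ± 49.4) and Stat5b (49.5 ± 7.64) formed a lower tier in which neighbours changed order between livers, each being the higher in 3 or 4 of 7. Igfbp4 was the scarcest at 10.1 ± 5.38 CPM and lay below Stat5b in 7 of 7 livers.

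Ghr encodes the growth hormone receptor (ENSMUSG00000055737.12, chromosome 15, 3317760 to 3583492, minus strand, mm10). It had 51.5 and 26.3 CPM in WT 1 and WT 2, and 57.7, 37.4, 17.5, 22.7 and 160.1 CPM in HET 1 to HET 5. The groups overlapped: HET 3 and HET 4 lay below both WT livers and HET 1 and HET 5 above both. The WT values rest on 8 and 9 counts, and that of HET 5 on 270, with an exact Poisson interval of 142 to 180 CPM (95%, counting error only). Mean levels were 38.9 ± 17.9 CPM for WT (SD, n = 2) and 59.1 ± 58.6 CPM for HET (SD, n = 5), and the log2 fold change was 0.84 ± 0.83 (SE; edgeR, adjusted p = 0.769). Without HET 5 the log2 fold change was 0.06. HET 5 was also the deepest library and the one with the most bile duct marker counts, among them 84 of the 87 counts of the duct keratin gene Krt19; the part of these in the Ghr value was not tested.

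Stat5b, the transcription factor that carries the signal to the nucleus (ENSMUSG00000020919.11, chromosome 11, 100780731 to 100850724, minus strand), was the steadiest member among HET livers. It had 38.7 and 61.3 CPM in WT and 55.8, 45.7, 43.8, 49.1 and 52.2 CPM in HET 1 to HET 5, so that all 5 HET livers fell between the WT pair. The log2 fold change was 0.03 ± 0.41 (edgeR, adjusted p = 0.990), with a 95% interval of −0.84 to 0.89 that does not exclude a fold of 0.559 or of 1.86. Its close paralog Stat5a had 53 counts in all 7 livers together and Jak2 58, and neither passed the expression filter.

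Among 23 further genes of growth hormone receptor signalling, 13 were tested, 0 passed in either direction, and the median log2 fold change was 0.00 (7 above and 6 below 0). Onecut1, a liver transcription factor also called HNF6, had 0 and 11.7 CPM in WT and 40.95, 4.16, 28.5, 86.9 and 46.3 CPM in HET 1 to HET 5, giving a log2 fold change of 2.40 ± 1.09 (by edgeR, adjusted p = 0.472). It was 1.88 without WT 1 and 7.66 without WT 2, where the remaining WT liver had 0 counts and the fitted value is no measure of size. HET 2 lay between the WT livers and the other 4 HET livers above both. Prlr, the prolactin receptor gene and a relative of Ghr, had 38.7 and 23.4 CPM in WT and 7.45, 4.16, 0, 7.56 and 15.4 in HET 1 to HET 5, all below both WT livers (log2 fold change −1.86 ± 0.88, edgeR, adjusted p = 0.483). Over all genes tested, 11.1% had every HET liver below both WT livers. The adaptor gene Grb2 had a log2 fold change of −0.64 ± 0.46 (by edgeR, adjusted p = 0.657).

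The feedback inhibitors differed from each other in how they spread over the livers. Cish (ENSMUSG00000032578.7, chromosome 9, 107296026 to 107302784, plus strand) encodes an SH2 protein induced by STAT5 that damps cytokine receptors. STAT5 binds palindromes of the form TTCNNNGAA, which read the same on both strands, and the RefSeq promoter windows (GRCm38.p6, the assembly of mm10, 250 bases before to 50 after each start) were searched for these letters because Cish, Socs2, Igf1 and Igfals are known STAT5 targets. The table held 14 windows for 9 of the 10 genes, Socs2 being the exception. The window of Cish held 2 matches, the first beginning at base 1 of the annotated transcript and the second at base 12, and 2 of the 3 windows of Igfals held 1 each, beginning 236 and 58 bases before a start. At least 1 match was present in 8.30% of 32851 windows and 2 or more in 0.457%. The matches are in capitals, 5′ to 3′ on the plus strand, with the Cish stretch inside an exon that GENCODE annotates as UTR at chr9:107296654-107296683, and those of Igfals within the gene but outside its exons at chr17:24877597-24877626 and chr17:24878162-24878191. They are matches of letters only.
Cish: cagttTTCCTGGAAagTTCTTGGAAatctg
Igfals, first window: cgatctataatTTCTCAGAAaagaggctga
Igfals, second window: tctgccaggtgTTCCTAGAAgaggccctgg

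Cish had 38.7 and 29.2 CPM in WT and 74.5, 43.0, 37.3, 94.5 and 89.0 CPM in HET 1 to HET 5. HET 1, HET 4 and HET 5 stood well above both WT livers, HET 2 slightly above, and HET 3 lay between them. Mean levels were 33.9 ± 6.70 CPM for WT (SD, n = 2) and 67.6 ± 26.2 CPM for HET (SD, n = 5). The log2 fold change was 1.10 ± 0.50 with a 95% interval of 0.04 to 2.15 (edgeR, unadjusted p = 0.0423, adjusted p = 0.465). The WT values rest on 6 and 10 counts, with exact Poisson intervals of 14.2 to 84.1 and 14.0 to 53.7 CPM (95%, counting error only). A pseudogene and an antisense gene overlap Cish, and since the use of strand is not given in the sources used here, their reads may not be separable. They held 12 and 0 counts over the 7 livers, against 279 for Cish.

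Socs2 (ENSMUSG00000020027.18, chromosome 10, 95385362 to 95417180, minus strand), whose product limits growth hormone receptor signalling and whose loss is known to give oversized mice, had 64.4 and 64.2 CPM in WT. HET 1 to HET 5 had 40.95, 16.6, 24.1, 106 and 86.0 CPM, 3 below both WT livers and 2 above both, a 6.36-fold range within 1 genotype. The log2 fold change was −0.20 ± 0.60 (edgeR, adjusted p = 0.936). Without HET 2 it was 0.03.

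Igf1, the hormone through which growth hormone acts on bone and muscle (ENSMUSG00000020053.18, chromosome 10, 87858265 to 87937042, plus strand), had 548 and 525 CPM in WT and 558, 596, 636, 737 and 1123 CPM in HET 1 to HET 5. All 5 HET livers lay above both WT livers, HET 1 by a margin of a few percent. Over all genes tested, 6.95% had every HET liver above both WT livers, and among the 9 tested axis genes these were Igf1 and Egfr. Mean levels were 537 ± 15.8 CPM for WT (SD, n = 2) and 729.9 ± 229 CPM for HET (SD, n = 5), with a log2 fold change of 0.52 ± 0.30 and a 95% interval of −0.12 to 1.16 (edgeR, adjusted p = 0.575). Without HET 5 it was 0.34. The antisense gene Igf1os held 5 counts in the 7 livers together, against 3373 for Igf1. Igf2, a fetal hormone silenced in adult mouse liver, had 1 count in all, and Igf1r, the IGF1 receptor gene that hepatocytes barely express, had 4.

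Igfals (ENSMUSG00000046070.9, chromosome 17, 24865997 to 24882010, plus strand) had 289.9 and 289 CPM in WT and 313, 280.0, 392, 309.8 and 251 CPM in HET 1 to HET 5. The HET livers lay on both sides of the WT pair, and HET 5, the highest for Igf1, was the lowest for Igfals. The log2 fold change was 0.19 ± 0.30 with a 95% interval of −0.44 to 0.82, or a fold of 0.736 to 1.77 (edgeR, adjusted p = 0.872). Leaving out 1 liver gave 0.056 (without HET 3) to 0.29 (without WT 1).

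Likeness to Igf1 over the 7 livers was ranked among 1266 genes with a mean of at least 100 CPM, with Gm and Rik symbols left out. The genes whose log2 CPM followed Igf1 most closely were Ubb (Pearson r = 0.95), Ndufab1 (0.95), Txn1 (0.94), Rpl13 (0.92) and Rps29 (0.90). They encode a polyubiquitin, a mitochondrial acyl carrier protein, thioredoxin and a pair of ribosomal proteins. The points share library and depth, and without HET 5, the highest liver for Igf1, the values fell to between 0.76 (Rps29) and 0.84 (Ndufab1). Ubiquitin and ribosomal protein genes have near-identical copies among which reads could have been split.

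The IGF-binding proteins hold IGF1 in the circulation or modulate its access to receptors. Igfbp2 (ENSMUSG00000039323.18, chromosome 1, 72824503 to 72852474, plus strand) had 1688 and 1147 CPM in WT and 1686, 2569, 2139.5, 1372 and 946 CPM in HET 1 to HET 5. HET 2 and HET 3 lay above both WT livers and HET 5 below both. The log2 fold change was 0.41 ± 0.38 (edgeR, adjusted p = 0.745). Without WT 2 it was 0.16 and without WT 1 it was 0.82.

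Igfbp1 is repressed by insulin through FOXO factors and rises with fasting (ENSMUSG00000020429.7, chromosome 11, 7197782 to 7202546, plus strand). The stretch of its promoter known as the insulin response element was located by the letters CAAAACA on either strand, which began 108 bases before the RefSeq start, upstream of the gene in GENCODE at chr11:7197652-7197711 (GRCm38.p6, plus strand), and occurred in 6.28% of all 32851 windows. Capitals mark the match.
Igfbp1: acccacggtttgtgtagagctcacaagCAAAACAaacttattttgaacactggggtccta

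Igfbp1 differed 2.79-fold between the WT livers themselves, at 38.7 and 108 CPM, and had 132, 30.5, 24.1, 86.9 and 98.4 CPM in HET 1 to HET 5. HET 2 and HET 3 lay below both WT livers, HET 1 above both and the others between. The log2 fold change was 0.01 ± 0.60 with a 95% interval of −1.27 to 1.29 (edgeR, adjusted p = 0.998), and its sign changed in 6 of 14 alternatives, given in the closing section.

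Igfbp4 (ENSMUSG00000017493.12, chromosome 11, 99041244 to 99054392, plus strand) rested on 1 and 6 counts in WT and 6, 7, 1, 2 and 27 in HET 1 to HET 5. These equal 6.44 and 17.5 CPM in WT and 11.2, 9.70, 2.19, 7.56 and 16.0 CPM in HET. HET 3 lay below both WT livers and the other 4 between them, and a single count in WT 1 has an exact Poisson interval of 0.163 to 35.9 CPM (95%). In the fit without a filter the log2 fold change was −0.16 ± 0.91 (edgeR, adjusted p = 0.934), and its 95% interval leaves folds of 0.261 to 3.06 indistinguishable at this depth. Of 18 further IGF system genes 3 were tested and 0 passed in either direction. Igfbp7, the binding protein gene Igfbp3 and the clearance receptor gene Igf2r had log2 fold changes of 0.59 ± 0.50, −0.32 ± 0.49 and 0.19 ± 0.44 (edgeR, adjusted p = 0.7197, 0.867 and 0.91).

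Egfr, a receptor tyrosine kinase of hepatocytes whose liver level is known to depend on growth hormone (ENSMUSG00000020122.16, chromosome 11, 16752203 to 16918158, plus strand), had the lowest p of the 10 genes. It had 58.0 and 55.5 CPM in WT and 80.0, 139, 109.6, 79.3 and 168 CPM in HET 1 to HET 5. All 5 HET livers lay above both WT livers, as in 6.95% of all genes tested. Mean levels were 56.7 ± 1.79 CPM for WT (SD, n = 2) and 115 ± 38.3 CPM for HET (SD, n = 5), with a log2 fold change of 1.14 ± 0.43 and a 95% interval of 0.23 to 2.04 (edgeR, unadjusted p = 0.0166, adjusted p = 0.392). Leaving out any 1 liver gave 0.99 to 1.25. The WT values rest on 9 and 19 counts, with exact Poisson intervals of 26.5 to 110.1 and 33.4 to 86.6 CPM. Both overlap those of HET 1 (57.9 to 108), HET 3 (81.4 to 144.5) and HET 4 (49.1 to 121). The intervals of HET 2 (113 to 169) and HET 5 (149 to 189) lie above both. Its antisense gene Egfros had 0 counts. Of 14 further EGF receptor family genes, ligands and regulators 4 were tested and 0 passed in either direction. The family member Erbb3 had 15.5 ± 5.41 CPM for WT (SD, n = 2) and 30.5 ± 12.1 CPM for HET (SD, n = 5), giving a log2 fold change of 1.14 ± 0.66 (by edgeR, adjusted p = 0.573), above both WT livers in 4 of 5 HET livers. Errfi1, an inhibitor of the receptor, Grb7 and Lrig1 had log2 fold changes of −0.09, −0.23 and 0.41.

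Sex-biased liver genes that respond to the rhythm of growth hormone were read as a separate list, chosen with earlier results of these data known. Genes of the list share the same 7 livers, so their directions are not independent observations. Of 19 genes known as male-biased, 13 were tested and 0 passed in either direction, and all 13 had log2 fold changes above 0 (52.1% of all genes tested), with a median of 0.67 against 0.03 over all genes. Of the 13, 5 had an unadjusted p under 0.05 with a higher HET value, against 5.39% of all genes tested, and 4 had every HET liver above both WT livers, against 6.95%. The 19 genes summed to 4369 and 2834 CPM in WT and 4199, 5411, 5200, 6480 and 7823 CPM in HET 1 to HET 5. HET 1 thus lay between the WT livers, and HET 2 to HET 5 above both. Under scaling by total counts 12 of 13 lay above 0. Without WT 2 it was 10 of 13, without HET 5 it was 10 of 12, and without HET 4 it was 11 of 12. With the replicate block it was 9 of 11.

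Hsd3b5, a steroid dehydrogenase gene of male liver, had 77.3 and 26.3 CPM in WT and 108, 193, 147, 166 and 278 CPM in HET 1 to HET 5. The groups did not overlap, and the log2 fold change was 2.00 ± 0.50 (edgeR, adjusted p = 0.219; DESeq2, adjusted p = 0.0467; without a filter, edgeR, adjusted p = 0.00230). Without WT 2 it was 1.28 (edgeR, adjusted p = 0.775). Slco1a1, an organic anion transporter gene, had 155 and 90.5 CPM in WT and 264, 295, 226, 295 and 307 CPM in HET (log2 fold change 1.30 ± 0.34, edgeR, adjusted p = 0.242), again without overlap. Nudt7, a peroxisomal coenzyme A hydrolase gene, had 232 and 126 CPM in WT and 318, 367, 237, 257 and 703 CPM in HET (1.18 ± 0.42, edgeR, adjusted p = 0.364). Selenbp2 had 199.7 and 522 CPM in WT and 320.2, 988, 1344, 1088 and 1644 in HET, with HET 1 between the WT livers (1.65 ± 0.58, edgeR, adjusted p = 0.392). It passed without a filter (edgeR, adjusted p = 3.96e-04) and in no other alternative with both WT livers. Without WT 2 the log2 fold changes of Slco1a1, Nudt7 and Selenbp2 were 0.92, 0.77 and 2.51. Cyp2d9, the most abundant of the list, had 1424 to 2249 CPM in WT and 2199 to 3039.9 in HET, with 4 of 5 HET livers above both WT livers.

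Of 22 genes known as female-biased, 10 had counts, 12 had 0 counts in all 7 livers (as did 36739 of the 55291 genes in the table) and 3 were tested, with 0 passing in either direction. The 22 genes summed to 419 and 1030 CPM in WT and 385, 133, 118, 140 and 181 CPM in HET 1 to HET 5. All HET sums lay below both WT sums, that of HET 1 close to WT 1. Of the 3 tested, 2 had every HET liver below both WT livers, against 11.1% of all genes tested, and 1 had every HET liver above both, against 6.95%. Cyp2a4, a steroid hydroxylase gene, had 25.8 and 137 CPM in WT and 14.9, 9.70, 4.38, 7.56 and 2.965 CPM in HET 1 to HET 5, all below both WT livers, with a log2 fold change of −3.41 ± 0.63. Its adjusted p was 0.0681 (edgeR), and it passed with DESeq2 (adjusted p = 0.00349), without HET 5 (edgeR, adjusted p = 0.0335) and without WT 1 (edgeR, adjusted p = 0.0141). Without WT 2, the liver where it was highest, the log2 fold change was −1.64 (edgeR, adjusted p = 0.814). Hamp2, a hepcidin gene, had 374 and 841 CPM in WT and 229, 44.4, 72.3, 60.5 and 91.3 CPM in HET (−2.53 ± 0.51, edgeR, adjusted p = 0.179; DESeq2, adjusted p = 8.24e-04; without HET 1, edgeR, adjusted p = 0.00201). Hamp2 also passed without a filter (edgeR, adjusted p = 7.41e-10). In the other alternatives with both WT livers its adjusted p was 0.0590 to 0.370 (edgeR). The log2 fold change of Hamp2 was −2.90 without WT 1 and −1.84 without WT 2. Rarres1 ran the other way, at 12.9 and 11.7 CPM in WT and 91.2, 67.9, 32.9, 60.5 and 66.4 CPM in HET (2.48 ± 0.59, edgeR, adjusted p = 0.186). Rarres1 passed without a filter (edgeR, adjusted p = 0.0324) and in no other alternative with both WT livers. Cyp2a4, Hamp2, Cyp4a12b, Selenbp2 and Cyp2d9 have near-identical relatives among which the authors' counting could have split reads.

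**Figure D3:**
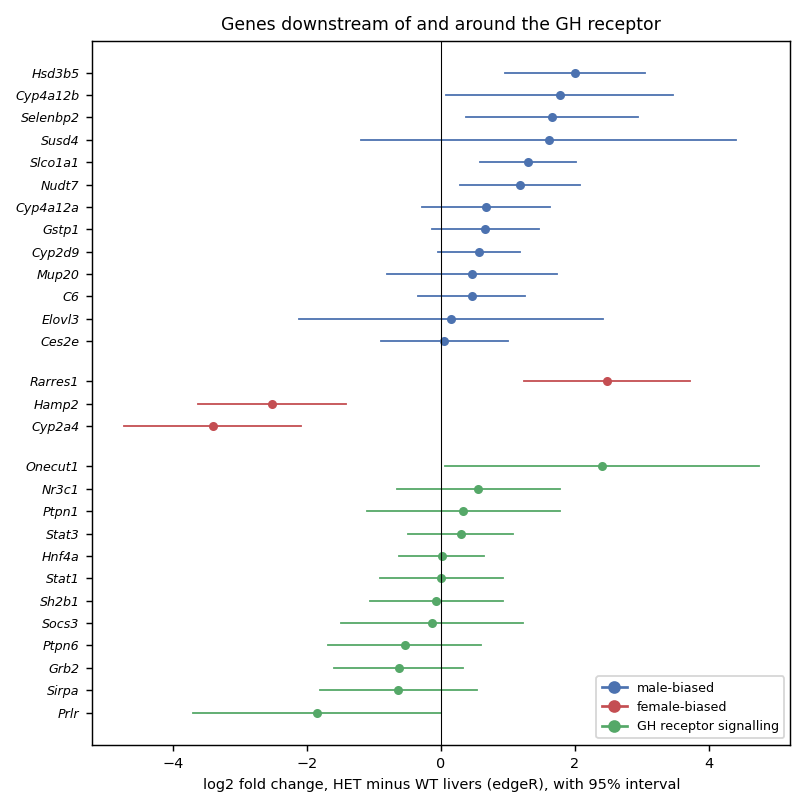
Points are log2 fold changes of HET against WT livers from edgeR, and lines are 95% intervals, for tested genes of 3 lists: male-biased (13 genes), female-biased (3) and other growth hormone receptor signalling genes (12 of the 13). All 13 male-biased points lie right of 0, Cyp2a4 and Hamp2 lie left of it, and the signalling genes lie on both sides.

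The HET livers differed among themselves in the acute phase, the inflammatory program in which hepatocytes make serum amyloid A and other plasma proteins, and axis genes are set beside it here as a description made after their values were seen. Saa1 had 567 and 703 CPM in WT and 544, 4326, 8821, 510.1 and 77.1 CPM in HET 1 to HET 5, so HET 2 and HET 3 were the high livers. The 26 acute phase genes together had 30947 and 37159 CPM in WT and 29335, 55243, 86696, 31584 and 25585 CPM in HET 1 to HET 5. The livers HET 2 and HET 3 had the highest Igfbp2 and the lowest Socs2 and Igfbp1 of all 7, and the lowest Cish of the HET livers. HET 5, the lowest for Saa1, had the highest Ghr, Igf1 and Egfr and the lowest Igfbp2. Other axis genes did not follow this order. Egfr was second highest in HET 2, Stat5b kept to 43.8 to 55.8 CPM over the HET livers, Igfals had 280.0 CPM in HET 2 and 392 in HET 3, and Igfbp4 had 9.70 and 2.19 CPM there. The part of the acute phase in these levels was not tested, and the pattern rests on 7 livers.

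**Figure D4:**
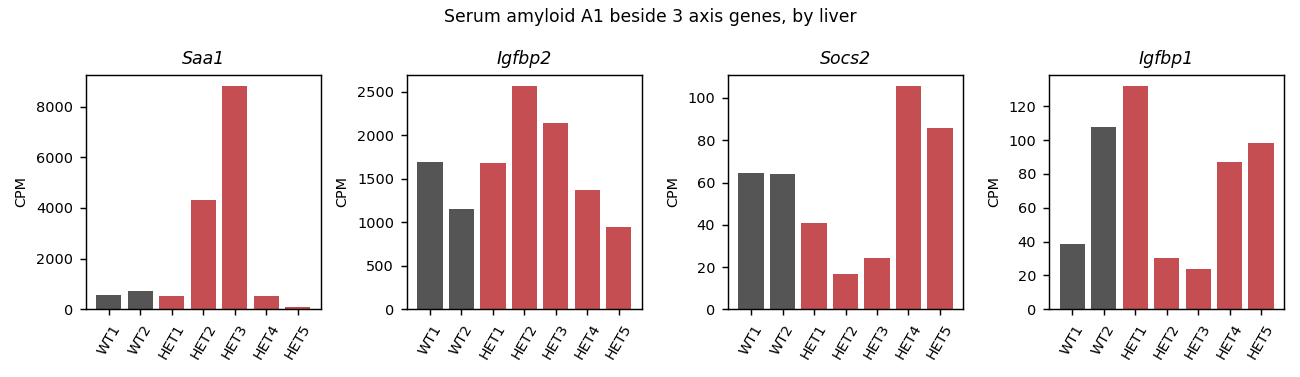
Bars give the level in CPM (vertical axes from 0) of Saa1, Igfbp2, Socs2 and Igfbp1 in each of the 7 livers, with WT in grey and HET in red. HET 2 and HET 3 have the tallest bars for Saa1 and Igfbp2 and the shortest for Socs2 and Igfbp1, 3 axis genes picked for the plot after their values were seen.

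Between the genotypes, 24 acute phase genes were tested, 0 passed in either direction, and 23 had log2 fold changes above 0 (against 52.1% of all genes tested), with a median of 0.61. This list too was chosen with earlier results of these data known, and its genes share the same 7 livers. Of the 24, 2 had an unadjusted p under 0.05 (edgeR) with a higher HET value (5.39% of all genes tested) and 0 with a lower one (4.96%). Every HET liver lay above both WT livers for 1 gene (6.95% of all genes tested) and below both for 1 (11.1%). Over the alternatives the count above 0 was 19 to 23, lowest without HET 3 and with the replicate block, where the filter may keep fewer of these genes. Il1r1, the interleukin-1 receptor gene, had 19.3 and 17.5 CPM in WT and 61.4, 77.6, 43.8, 30.2 and 20.2 CPM in HET (1.47 ± 0.67, edgeR, adjusted p = 0.4657). Orm1, an acid glycoprotein gene, had a log2 fold change of 1.43 ± 0.63, Fgg, of fibrinogen, 0.78 ± 0.42, and Il6ra, the interleukin-6 receptor gene, −0.63 ± 0.38 (edgeR, adjusted p = 0.478, 0.557 and 0.598). Markers of other liver cells were also summed, and their part in the results was not tested: Kupffer cell genes summed to 664 and 724 CPM in WT and 322 to 724 in HET with 8 of 8 counted, sinusoidal endothelial genes to 102 to 122 in WT and 52.9 to 149 in HET with 7 of 7 counted, and stellate cell genes to 327 to 387 in WT and 236 to 403 in HET with 7 of 7 counted. Of 5 exocrine pancreas genes, Cpa1, Prss1 and Amy2a1 had 0 counts in every liver and Pnlip had 1 count in all. Cela1, an elastase gene and the only one tested, had 70.9 and 35.0 CPM in WT and 106, 95.6, 98.6, 128 and 136 CPM in HET 1 to HET 5, all above both WT livers, at a log2 fold change of 1.25 ± 0.42 (by edgeR, unadjusted p = 0.00765, adjusted p = 0.317); its part in the results was not tested.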

How the data were processed

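Per the labels' protocols, liver RNA was extracted with TRI reagent and sequenced by MARS-seq adapted to bulk RNA. The submitters' processing notes name cutadapt, STAR and the mouse build mm10. Counting tool, annotation, strand, molecular barcodes and versions are not given in the sources used here. As deposited, the table holds whole-number counts per gene symbol that the authors call corrected, without saying for what. All 7 liver columns were matched to samples by library name, 0 were left over, and 0 pairs were identical. Pancreas libraries were not used here. GENCODE release M21 matched 53292 of 55291 symbols.

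Counts were tested with edgeR 4.0.16 (R 4.3.3; genes kept by filterByExpr on the groups, TMM, estimateDisp, robust glmQLFit, glmQLFTest; genotype alone; threshold 0.05; 5 residual degrees of freedom; common dispersion 0.125). SE and 95% intervals come from the F statistic. The fits were tested on simulated data. Alternatives were DESeq2 1.42.0, its size factors, total-count scaling, no filter beyond 1 count, a mean of at least 10 CPM, a fit that is not robust, a replicate block, and each liver left out in turn. The genes named are the 10 axis genes, up to 4 of each list with the smallest p, and the 5 most like Igf1, except some that are not reported here; Cyp2d9, Igf2, Igf1r, Cela1, Pnlip, Jak2, Stat5a and Krt19 were chosen after their values were seen. Members and lists were chosen with earlier results of these data known.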

Additional observations from a re-analysis of the deposited data

Results flagged for a closer look

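Among 36 genes whose 5 HET livers were looked at, 3 had a liver whose gap to the nearest other exceeded Dixon's critical value at 95%, and chance flags about 1 in 20 groups. Ghr had 160.1 CPM in HET 5 (270 counts), with the next liver at 57.7 CPM. Nudt7 had 703 CPM in HET 5 (1185 counts), with the next at 367 CPM. Hamp2 had 229 CPM in HET 1 (123 counts), with the next at 91.3 CPM. HET 5 was the deepest liver library, at 1686234 counts. The cause was not tested.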

How the results depend on the processing

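No member of the axis passed under any of the 14 alternatives (Igfbp4 could be tested in 1 beside the fit without a filter). The count of all genes called was 0 and became 16 with DESeq2, 57 without a filter and 6 with a mean of at least 10 CPM, and ranged from 0 to 6 when 1 liver was left out (1 without HET 1, 6 without HET 5, 4 without WT 1). With the replicate block, fitted on the 4 livers whose numbers occur in both genotypes, it was 0. Deviations of same-numbered livers from their group means had correlations of −0.03 and −0.03 across 4803 genes, which are not independent. With 2 WT livers the WT deviations mirror each other, so these values cannot decide whether same-numbered samples were paired. The labels state no pairing. Under the block Socs2 had a log2 fold change of −1.22 and Igf1 0.19.

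Some signs turned. Stat5b was −0.079 by total counts and −0.13 to 0.43 when 1 liver was left out (−0.01 without HET 1, −0.13 without WT 1). Igfbp1 was −0.070 by total counts, −0.16 with the block, −0.28 without HET 1, −0.05 without HET 4, −0.14 without HET 5, −0.39 without WT 1 and 0.99 without WT 2. Socs2 was −0.50 to 0.035 when 1 liver was left out. When 1 liver was left out, Igfbp3 ran from −0.78 to 1.077 (above 0 without WT 2), Lrig1 from −0.17 to 1.06 (below 0 without WT 2), Grb7 from −0.40 to 0.034 (above 0 without WT 1) and Errfi1 from −0.42 to 0.16 (above 0 without HET 2, HET 3 or WT 2). Errfi1 was 0.062 with no filter. The cause was not tested. Over the 4803 genes, log2 fold changes shifted by a median of −0.10 under total-count scaling and by 0.15 without the filter. With 2 WT livers of 155201 and 342609 counts, depth limits the genes under about 20 counts there.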

Other observations

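Genes controlled by insulin and FOXO1 in liver were listed beside Igfbp1. Of 20, 12 were tested and 0 passed in either direction (edgeR), with 7 log2 fold changes above 0 and a median of 0.04. Trib1, a pseudokinase gene, Fbp1, of gluconeogenesis, and Foxa2, a liver transcription factor gene, had log2 fold changes of −0.61 ± 0.41, 0.51 ± 0.39 and 1.25 ± 1.06 (edgeR, adjusted p = 0.636, 0.682 and 0.7202). Pck1, the gatekeeper of gluconeogenesis, had 2436 and 2189 CPM in WT and 1258 to 2844 CPM in HET and a log2 fold change of 0.05 ± 0.31 (by edgeR, adjusted p = 0.967), and was chosen after its value was seen. Foxo1 itself had 0 counts in all 7 livers, which allows up to 1.78 CPM in HET 5 and 19.3 in WT 1.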
